A study of Homo sapiens with 3 samples.

Results

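Endoplasmic reticulum (ER) chaperones and unfolded protein response genes were examined in PANC-1 cells, an established human pancreatic cancer cell line, at the level of messenger RNA. The set held 10 genes, taken by symbol from the 51136 genes of the count table: the chaperones HSPA5, HSP90B1 and HYOU1, the HSPA5 partners DNAJB9 and SDF2L1, the lectin chaperone CALR, the disulfide isomerase PDIA4, the degradation factor HERPUD1, and the transcription factors XBP1 and ATF6. RNA-seq on the Ion Proton gave 1 library from untreated cells (Control), 1 from cells given 200 μM ginsenoside Rg3, a saponin of ginseng (Rg3), and 1 from cells given 50 μM tamoxifen, an estrogen receptor modulator (TAM), both for 24 h. For the cell treatments, the sources used here name no carrier of the drugs and no vehicle in Control. Because each condition had 1 library, no difference below has a replicate check, no p-value between conditions is given, and the 95% intervals cover counting error only.

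The ER folds secreted and membrane proteins, and when unfolded proteins build up, 3 sensors in its membrane set off the unfolded protein response. IRE1 splices the mRNA of XBP1 into that of an active transcription factor, ATF6 is cut in the Golgi to release a fragment that enters the nucleus, and PERK slows translation while favouring that of ATF4. The nuclear forms of ATF6 and XBP1 bind ER stress response elements in promoters and raise chaperone and degradation genes, which makes HSPA5 and its companions the usual readouts of ER load in secretory tissue such as pancreas.

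The promoters of most of these genes hold a known element for ATF6 and XBP1, and the elements are printed here. Windows from 250 bases before to 50 bases after the RefSeq start of 35116 promoters (GRCh38.p14) were searched on both strands. The ER stress response element (ERSE) was written as CCAAT and CCACG with any 9 bases between them, and ERSE-II as ATTGG and CCACG with any 1 base between them. ERSE was found in 27 of all promoters (0.0769%) and ERSE-II in 19 (0.0541%). Among the 10 genes, 4 held ERSE, 3 others held ERSE-II, and DNAJB9, PDIA4 and ATF6 held neither element in the window. The set was chosen as ER folding genes and targets of ATF6 and XBP1, so these counts are no independent finding. In the lines below, each with the strand of its gene, capitals mark the element and 20 bases are given on either side.
HSPA5 ERSE, chr9:125241371-125241429, minus strand: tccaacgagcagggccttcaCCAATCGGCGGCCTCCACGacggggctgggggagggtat
HSP90B1 ERSE, far site, chr12:103930196-103930254, plus strand: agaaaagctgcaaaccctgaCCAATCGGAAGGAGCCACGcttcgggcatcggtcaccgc
HSP90B1 ERSE, near site, chr12:103930301-103930359, plus strand: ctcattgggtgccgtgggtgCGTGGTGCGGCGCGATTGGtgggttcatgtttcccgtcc
CALR ERSE, chr19:12938364-12938422, plus strand: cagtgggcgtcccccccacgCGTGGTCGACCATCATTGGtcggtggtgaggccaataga
XBP1 ERSE, chr22:28800583-28800641, minus strand: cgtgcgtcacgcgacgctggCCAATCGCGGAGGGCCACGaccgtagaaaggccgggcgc
SDF2L1 ERSE-II, chr22:21642094-21642144, plus strand: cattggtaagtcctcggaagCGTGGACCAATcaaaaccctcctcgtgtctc
HERPUD1 ERSE-II, chr16:56932005-56932055, plus strand: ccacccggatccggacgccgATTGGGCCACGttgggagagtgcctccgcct
HYOU1 ERSE-II with a UPR element, far site, chr11:119057360-119057413, minus strand: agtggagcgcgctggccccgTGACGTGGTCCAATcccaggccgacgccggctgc
HYOU1 ERSE-II, near site, chr11:119057254-119057304, minus strand: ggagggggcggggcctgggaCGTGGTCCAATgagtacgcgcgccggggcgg

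HSP90B1 and HYOU1 carried 2 sites each, and the near HSP90B1 site, the CALR site, the SDF2L1 site and both HYOU1 sites read as the reverse complement of the letters searched. The HSPA5 element began 66 bases before the start and that of XBP1 52 bases before it, while the CALR element began 225 bases before it. The UPR element TGACGTGG, found in 256 promoters (0.729%), was present in HYOU1 alone of the 10, where it overlapped the far ERSE-II. The C/EBP-ATF element TGATGNAAT, in 348 promoters (0.991%), was found in 0 of the 10. A match describes the letters of a promoter and says nothing of binding in these cells.

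Reads counted on genes ranged from 11300766 to 12861693 per library. Levels are counts scaled to a library of 1000000 (CPM) after TMM scaling, which assumes that most genes keep their level. Against library totals, TMM shifted the log2 fold change of every gene by -0.14 with Rg3 and by 0.21 with TAM. Genes entered a comparison with 10 or more counts in either library, which all 10 reached, and a gene was counted as higher or lower when its fold was over 1.5 or under 0.67. The epithelial keratins KRT8 and KRT18 were abundant in every library (KRT8 between 543 and 1448 CPM). The epithelial EPCAM and CDH1 were at 6.62 CPM or less. The markers did not move together. KRT8, KRT18, KRT7, SOX9 and the mesenchymal VIM and FN1 were lowest with Rg3. KRT19, EPCAM, CDH1 and the mesenchymal CDH2 were lowest with TAM. In Control, Rg3 and TAM, KRT19 was at 57.92, 20.14 and 18.19 CPM and CDH2 at 54.52, 54.45 and 30.95 CPM. Acinar (5 of 5) and endocrine (3 of 3) markers had no reads, PTPRC and CD3E of the 3 leukocyte markers had at most 1 read in any library beside 29.6 to 110.5 CPM of the lysosomal CD68, and endothelial markers summed to 0.301 CPM or less.

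The summed counts of the 10 genes were nearly level as a share of library totals, but not after TMM scaling. They were 37824 in Control, 42165 with Rg3 and 37161 with TAM, or 0.335% (exact binomial 95% interval 0.331 to 0.338), 0.328% (0.325 to 0.331) and 0.328% (0.325 to 0.332) of all counts. On the TMM scale the sums were 3294, 2928 and 3734 CPM, lowest with Rg3 and highest with TAM. The make-up of the sum, which no scaling touches, also differed. CALR, a lectin chaperone that binds glycoproteins and stores calcium, took 44.6% of the summed counts in Control, 38.4% with Rg3 and 55.8% with TAM. HSP90B1, also called GRP94, the ER member of the HSP90 family, took 7.30%, 11.8% and 3.08%. These shares are not free of the drift with GC content described below (53.9% GC for CALR, 42.4% for HSP90B1). With that trend removed, log2 fold changes with Rg3 were -0.04 for CALR and 0.04 for HSP90B1, and with TAM 0.16 and -0.83.

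Per kb of the longest annotated transcript, CALR stood highest in all 3 libraries, at 772 CPM per kb in Control, 591 with Rg3 and 1095 with TAM. In Control the next 3 were close: PDIA4 and HYOU1 had overlapping counting intervals at 132.2 and 132.1 CPM per kb, and HSPA5 followed at 118. With Rg3, HSPA5 (143) and HSP90B1 (114) moved above HYOU1 (97.9) and PDIA4 (95.3), whose intervals again overlapped. These levels are not corrected for the drift with GC content described below. With that trend removed, log2 fold changes with Rg3 were 0.06 for HSPA5, 0.04 for HSP90B1, -0.00 for HYOU1 and -0.17 for PDIA4. HSP90B1 was at 79.3 CPM per kb in Control, so its place with Rg3 rests on uncorrected levels. With TAM the order after CALR was HYOU1 (126), PDIA4 (117) and HSPA5 (112), the last 2 with overlapping intervals, and HSP90B1 dropped below SDF2L1, at 38.0 against 68.8 CPM per kb. XBP1, HERPUD1, ATF6 and DNAJB9 filled the last 4 places in that order in every library, with DNAJB9 at 0.770, 2.02 and 0.999 CPM per kb.

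**Figure D1:**
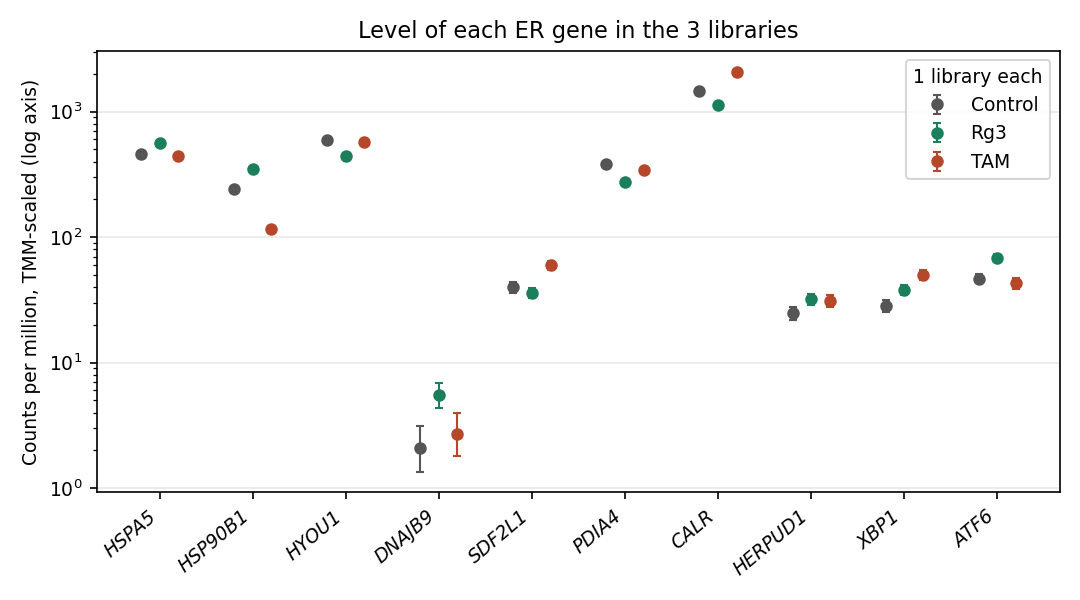
Level of each of the 10 genes in CPM after TMM scaling, on a log axis, with 1 point for each library (Control, Rg3, TAM) and 95% Poisson intervals of the count. HSP90B1 ranged from 115 CPM with TAM to 346 CPM with Rg3, and DNAJB9 had the widest intervals.

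HSP90B1, which folds integrins and Toll-like receptors among other clients, differed most between the drugs of the 10 genes. It had 2760 counts in Control, 4987 with Rg3 and 1146 with TAM, or 240.4, 346 and 115 CPM. The TAM library was far below both others: its log2 fold change was -1.06 against Control (95% interval -1.16 to -0.96) and -1.59 against Rg3 (-1.68 to -1.50). With Rg3 the level was 0.53 above Control on the log2 scale (0.46 to 0.59), under the limit, and with library totals it passed at 0.67, while after the GC and length correction described below it was at 0.04. HSP90B1 lies on chromosome 12 (103930107 to 103953645, plus strand, GENCODE 29 on GRCh38). Its exons overlap MIR3652 on the same strand and C12orf73 and TTC41P on the opposite strand, and 7.01% of its 50-base stretches recur in other genes, mainly its pseudogene HSP90B2P. Counts of that pseudogene followed the same order, at 172, 265 and 56, while C12orf73 had 89, 134 and 77 counts and a log2 fold change with TAM of -0.00.

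HSPA5, also called BiP or GRP78, is the HSP70 of the ER and holds the sensors inactive. It had 5293, 8027 and 4369 counts in Control, Rg3 and TAM, or 461, 557 and 439 CPM. Its log2 fold change was 0.27 with Rg3 (0.22 to 0.32) and -0.07 with TAM (-0.13 to -0.01), both inside the limits. HSPA5 shares 9.54% of its 50-base stretches with other annotated genes, mainly AC105250.1. HYOU1, a large HSP70 relative that exchanges nucleotides on HSPA5, had 6868, 6382 and 5683 counts, or 598, 443 and 571 CPM, with log2 fold changes of -0.43 (-0.48 to -0.38) and -0.07 (-0.12 to -0.02).

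Ratios of counts within a library do not depend on the scaling, and pairs were chosen for this after their values were seen. HSP90B1 had 0.521 counts for each count of HSPA5 in Control (0.498 to 0.546), 0.621 with Rg3 (0.600 to 0.644) and 0.262 with TAM (0.246 to 0.280). The TAM ratio lay far below the other 2 and the intervals did not meet. HYOU1 to HSPA5 was 1.30 in Control, 0.795 with Rg3 and 1.30 with TAM, so that the Control and TAM values met within counting error and the Rg3 value lay lower. CALR to HSPA5 was 3.19, 2.02 and 4.75, lowest with Rg3 and highest with TAM. These pairs differ in GC content (46.0% for HSPA5, 53.9% for CALR, 55.2% for HYOU1), along which fold changes of all genes drifted, as described below. With that trend removed, the log2 fold changes of HSPA5 (0.06 with Rg3, 0.18 with TAM) and CALR (-0.04 and 0.16) were close to each other. Those of HSPA5 and HYOU1 (-0.00) were also close with Rg3, but with TAM HYOU1 (-0.07) was then below HSPA5. HSP90B1 with TAM (-0.83) remained far from HSPA5.

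DNAJB9 (ERdj4), a J-domain protein that brings HSPA5 to IRE1 and is a well-known XBP1 target, had the lowest counts of the set, 24 in Control, 79 with Rg3 and 27 with TAM, or 2.09, 5.49 and 2.71 CPM. Its log2 fold change with Rg3 was 1.39 (0.72 to 2.12), above the limit. With TAM it was 0.38 (-0.47 to 1.23), an interval that covers 0. DNAJB9 lies on chromosome 7 (108569568 to 108574850, plus strand), and its exons overlap PNPLA8 and THAP5 on the opposite strand. Both had more reads with Rg3, PNPLA8 with 55, 278 and 46 counts and THAP5 with 43, 91 and 17, at log2 fold changes with Rg3 of 2.01 and 0.75. The sources used here do not say whether counting used strand, so their part in the DNAJB9 counts was not tested.

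SDF2L1, which works with HSPA5 and its J-domain partners, had 456, 519 and 592 counts, or 39.7, 36.0 and 59.5 CPM. Its log2 fold change was -0.14 with Rg3 (-0.32 to 0.04) and 0.58 with TAM (0.40 to 0.76). The TAM value was just under the limit and above it with DESeq2 size factors. It was 0.37 with library totals and 0.04 after the GC and length correction. The TAM library was higher than both others on the TMM scale. CALR, with 16870, 16194 and 20734 counts (1469, 1125 and 2083 CPM), had log2 fold changes of -0.39 with Rg3 (-0.42 to -0.35) and 0.50 with TAM (0.47 to 0.53), again inside the limits. Between the drugs, both genes passed the limit, with TAM higher by 0.72 (0.55 to 0.90) for SDF2L1 and 0.89 (0.86 to 0.92) for CALR on the log2 scale. Both calls ended with library totals, at 0.37 and 0.54. After the GC and length correction CALR came to 0.15 and SDF2L1 turned to -0.59.

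PDIA4 (ERp72), which forms and rearranges disulfide bonds, was lower in both treated libraries but inside the limits. It had 4406, 3983 and 3377 counts, or 384, 277 and 339 CPM, with log2 fold changes of -0.47 (-0.53 to -0.41) and -0.18 (-0.24 to -0.11). HERPUD1, which sits in the ubiquitin ligase complex of ER-associated degradation, had 284, 459 and 310 counts, or 24.7, 31.9 and 31.1 CPM. Its log2 fold changes were 0.37 with Rg3 (0.15 to 0.58) and 0.33 with TAM (0.10 to 0.57), nearly alike and below the limit in both.

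XBP1, whose spliced mRNA encodes the transcription factor of the IRE1 arm, was highest with TAM on the TMM scale. It had 327 counts in Control, 546 with Rg3 and 497 with TAM, or 28.5, 37.9 and 49.9 CPM. Its log2 fold change was 0.81 with TAM (0.61 to 1.02), above the limit, and 0.41 with Rg3 (0.21 to 0.62). With library totals these values were 0.60 and 0.55, and after the GC and length correction 0.59 and 0.50. Between the drugs, TAM was higher by 0.40 with TMM scaling, but by 0.05 with library totals and by 0.05 after the correction. XBP1 lies on chromosome 22 (28794555 to 28800597, minus strand). Counts per gene do not separate its spliced from its unspliced form. ATF6 had 536, 989 and 426 counts, or 46.7, 68.7 and 42.8 CPM, with log2 fold changes of 0.56 with Rg3 (0.40 to 0.71) and -0.13 with TAM (-0.31 to 0.06). The Rg3 library was the highest of the 3 for ATF6, and with library totals it passed the limit at 0.70, but after the GC and length correction it was at 0.03.

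**Figure D2:**
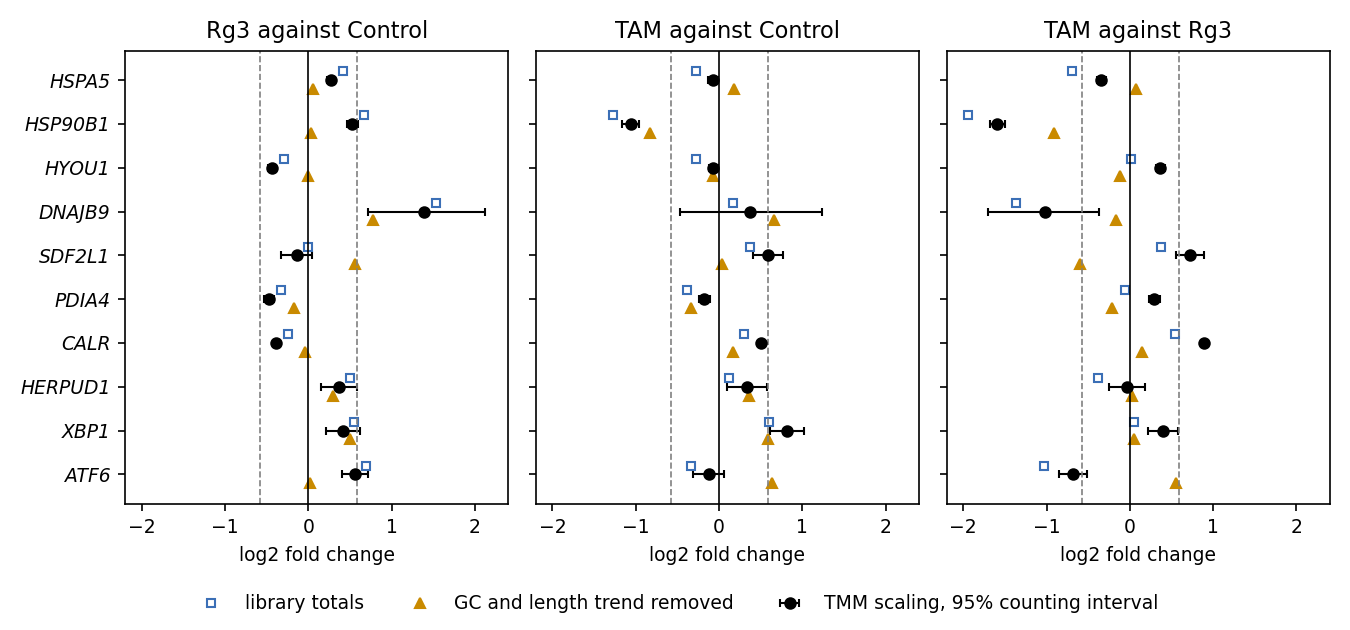
Log2 fold change of each of the 10 genes (TMM scaling) for Rg3 against Control, TAM against Control and TAM against Rg3, with 95% counting intervals and the fold limits of 1.5 and 0.67 as lines. HSP90B1 lies at -1.06 with TAM and 0.53 with Rg3, XBP1 at 0.81 with TAM, and DNAJB9 at 1.39 with Rg3 with the widest interval.

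For Rg3 against Control, 1 of the 10 genes was higher (DNAJB9) and 0 were lower, where 25.0% of 16487 genes compared were higher and 19.5% lower. The median log2 fold change of the 10 was 0.32, beside 0.04 over all genes compared, with 6 genes above 0 and 4 below. For TAM against Control, 1 was higher (XBP1) and 1 lower (HSP90B1), where 17.4% of 16079 genes were higher and 23.8% lower. The median was 0.13, beside -0.02 over all genes, with 5 above 0 and 5 below, and with library totals it turned to -0.08. For TAM against Rg3, 2 were higher (CALR and SDF2L1) and 3 lower (HSP90B1, DNAJB9 and ATF6), where 30.0% of 16493 genes were higher and 35.4% lower. Against Control with TMM scaling, the share of the 10 genes called was thus below that of all genes in each direction, but 1 gene makes 10% of the set. This did not hold under every setting. With library totals 3 of the 10 were higher with Rg3. With the trend described below removed, 3 of the 10 were higher with TAM (30.0%, beside 12.9% of all genes). The 3 comparisons share libraries in pairs. With a biological coefficient of variation of 0.2 assumed in edgeR's exact test, 0 of the calls against Control passed, and HSP90B1 alone passed between the drugs.

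Members with ERSE or ERSE-II did not move together. Of the 4 with ERSE, XBP1 was higher and HSP90B1 lower with TAM, HSPA5 and CALR were inside the limits, and 0 of the 4 were called with Rg3. The 3 with ERSE-II were inside the limits in both comparisons with Control. Outside the 10, 37 genes had either element, among them the chaperone CANX, the UPR-secreted CRELD2 and the isomerase PDIA6, and 24 of them could be compared. With Rg3, 6 were higher and 5 lower with a median of 0.01, and with TAM 1 was higher and 4 lower with a median of 0.04, against the shares over all genes given above of 25.0% and 19.5% for Rg3 and 17.4% and 23.8% for TAM.

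Across genes with at least 50 counts, fold changes followed the GC content of the transcripts, downwards with Rg3 and upwards with TAM, and the 10 genes span 40.4% GC (DNAJB9) to 65.5% (SDF2L1). In genes near the GC content of HSP90B1 (42.4%), in a bin centred on 43%, the median log2 fold change was 0.55 with Rg3 and -0.32 with TAM. HSP90B1 with Rg3 (0.53) was thus near its neighbours in GC, and with TAM (-1.06) it was below the lower quartile of that bin (-0.71). A smooth trend on GC content and length was then removed, and this correction is called removal of the trend. After it, the median of the 10 genes with Rg3 was 0.05, beside 0.07 over all genes.

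The removal left some calls and ended or turned others. HSP90B1 stayed below the limit with TAM at -0.83 and against Rg3 at -0.91, XBP1 stayed above it with TAM at 0.59, and DNAJB9 with Rg3 at 0.78. ATF6 (41.3% GC, with the longest transcript of the set at 7496 bases) turned from -0.13 to 0.64 with TAM, and DNAJB9 with TAM came to 0.66, both then above the limit. SDF2L1 with Rg3 came to 0.56. The values of CALR with Rg3 came to -0.04 and of HYOU1 to -0.00, so that little of their lower counts remained. Of the 10 genes, 1 was then higher and 0 lower with Rg3, where 10.4% and 8.6% of all genes with a GC value were. For TAM 3 were higher (XBP1, ATF6 and the low-count DNAJB9) and 1 lower, where 12.9% and 15.7% of all genes were. Between the drugs 0 were higher and 2 lower, where 14.3% and 24.0% were, the 2 being HSP90B1 and SDF2L1, which turned to -0.59.

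**Figure D3:**
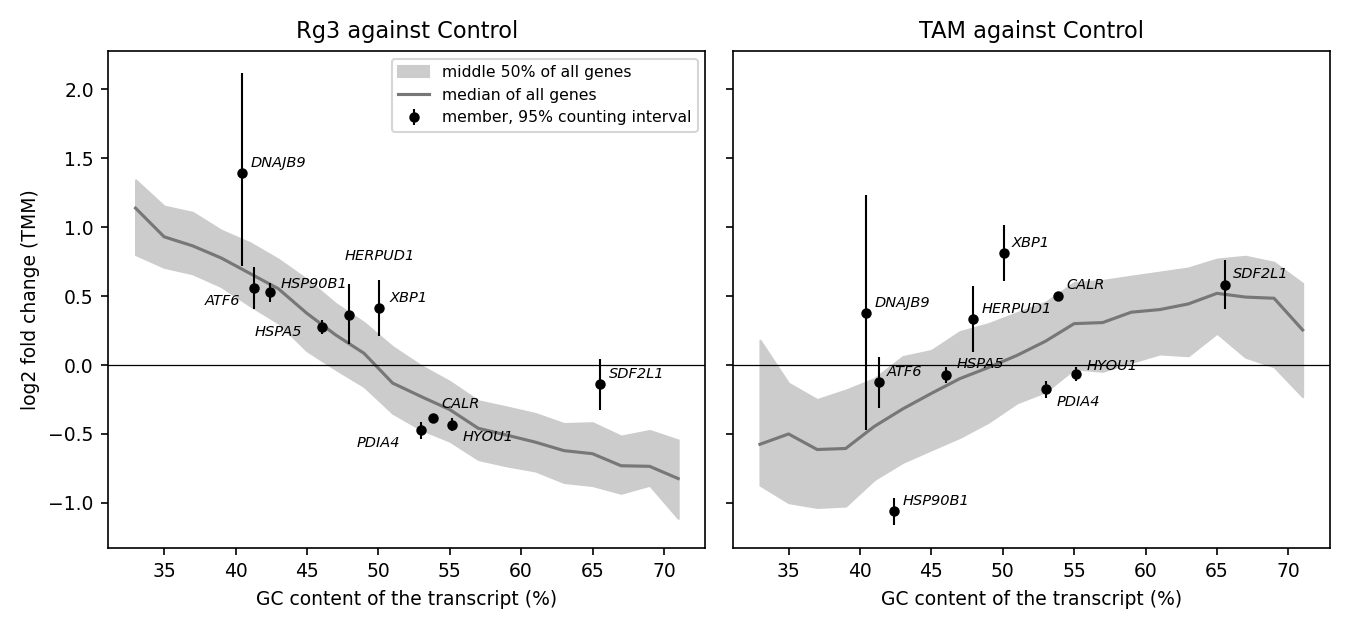
Log2 fold change (TMM scaling) against transcript GC content for Rg3 (left) and TAM (right) against Control. The line and band give the median and the middle 50% of genes with at least 50 counts, in bins of 2% GC, and points give the 10 genes with 95% counting intervals. With Rg3 most of the 10 lie on or near the band, with DNAJB9, SDF2L1 and XBP1 above it, while with TAM HSP90B1 lies far below it, HYOU1 narrowly below it, and XBP1, DNAJB9 and HERPUD1 above it.

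Other genes of the ER and of stress responses were taken from 9 lists by role, 146 genes in all, of which 143 could be compared. With Rg3, 40 were higher and 9 lower, with a median log2 fold change of 0.20, and with TAM 21 were higher and 27 lower, with a median of 0.09. These were 27.97% and 6.29% of the 143 genes for Rg3, beside 25.0% and 19.5% of all genes, and 14.7% and 18.9% for TAM, beside 17.4% and 23.8%. All 4 shares were thus near or below those over all genes. Without the trend the counts became 16 and 3 with Rg3 (11.2% and 2.10%, beside 10.4% and 8.6% of all genes) and 18 and 9 with TAM (12.6% and 6.29%, beside 12.9% and 15.7%). The single lists below hold few genes each and are given as counts to be read against these shares.

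Of 15 other chaperones, co-chaperones and secreted factors of the ER, 4 were higher and 2 lower with Rg3, and 4 were higher and 4 lower with TAM. Without the trend these counts were 0 and 1 with Rg3 and 1 and 0 with TAM. HSPA13, with the largest rise of the list with Rg3, had 85, 295 and 104 counts, at log2 fold changes of 1.47 and 0.50. Without the trend it was inside the limits with Rg3 at 0.54, and it was the gene higher with TAM, at 1.10. DNAJC3 (p58IPK), a J-domain inhibitor of PERK, had 195 counts in Control, 427 with Rg3 and 76 with TAM, at log2 fold changes of 0.80 and -1.15, and without the trend it was inside the limits at 0.16 and -0.47. SERPINH1, the collagen chaperone HSP47, had 1910, 920 and 1840 counts, at a log2 fold change of -1.38 with Rg3. It was still below the limit with the trend removed, at -0.78. CANX, the membrane-bound partner of CALR, had 4581, 7350 and 3025 counts, and its log2 fold changes of 0.36 and -0.39 had signs opposite to those of CALR in both comparisons, which did not hold with the trend removed (CANX at -0.19 and 0.09, CALR at -0.04 and 0.16). MANF and CRELD2, which are secreted on ER stress, stayed inside the limits, at 0.24 and -0.48 with Rg3 and 0.32 and 0.47 with TAM.

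Among 17 disulfide and proline isomerases, 3 were higher and 1 lower with Rg3, and 3 were higher and 3 lower with TAM. The abundant P4HB (12991, 12491 and 14999 counts) and PDIA6 (2961, 3673 and 2806) stayed inside the limits, at log2 fold changes of -0.38 and -0.02 with Rg3 and 0.41 and 0.13 with TAM. PPIB, the ER cyclophilin, was lower with Rg3 at -0.71 and higher with TAM at 0.76. ERO1L (ERO1A), the oxidase that recharges the isomerases, had 357, 897 and 211 counts and was higher with Rg3 at 1.00. After the trend was removed, PPIB was inside the limits in both comparisons at -0.21 and 0.30, ERO1L was at 0.28 with Rg3, and the counts of the list were 0 and 1 for Rg3 and 1 and 1 for TAM.

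Of 20 genes of ER-associated degradation that could be compared, 6 were higher and 0 lower with Rg3, and 1 was higher and 7 lower with TAM. SEL1L, the scaffold of the HRD1 ligase complex, had 310, 601 and 109 counts, at log2 fold changes of 0.63 and -1.30. EDEM1, a mannosidase-like factor that marks misfolded glycoproteins, had 519, 1114 and 263 counts, at 0.78 and -0.77, and EDEM3 had 105, 285 and 25, at 1.11 and -1.86. These 6 higher and 7 lower of 20 stand beside 25.0% of all genes higher with Rg3 and 23.8% lower with TAM. After removal of the trend, 1 gene of the list was higher and 0 lower with Rg3, and 3 were higher and 2 lower with TAM. Of the 6 calls of SEL1L, EDEM1 and EDEM3, 1 was then left, EDEM3 with TAM at -1.05. SEL1L was at -0.02 with Rg3 and -0.46 with TAM, EDEM1 at 0.51 and -0.25, and EDEM3 at 0.40 with Rg3.

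Of 22 genes of translocation, signal cleavage and glycosylation, 7 were higher and 0 lower with Rg3, and 3 were higher and 2 lower with TAM. Of 16 genes of COPII export, Rg3 had 5 higher and 1 lower, and with TAM 0 were higher and 4 lower. TRAM1, of the translocon, had 212, 648 and 149 counts and a log2 fold change of 1.29 with Rg3, and STT3B, a catalytic subunit of the oligosaccharyltransferase, had 992, 1941 and 468, at 0.64 and -0.88. SAR1B, the GTPase that starts the COPII coat, had 241, 732 and 188 counts, at 1.28 with Rg3. With the trend removed, the translocation list had 1 gene higher and 1 lower for Rg3, and 5 and 0 for TAM. The COPII list had 1 and 0 for Rg3, and 1 and 1 for TAM. TRAM1 was then inside the limits at 0.52 with Rg3, as was STT3B at 0.09 and -0.40. SAR1B stayed just above the limit with Rg3 at 0.59 and turned from -0.15 to 0.64 with TAM.

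**Figure D4:**
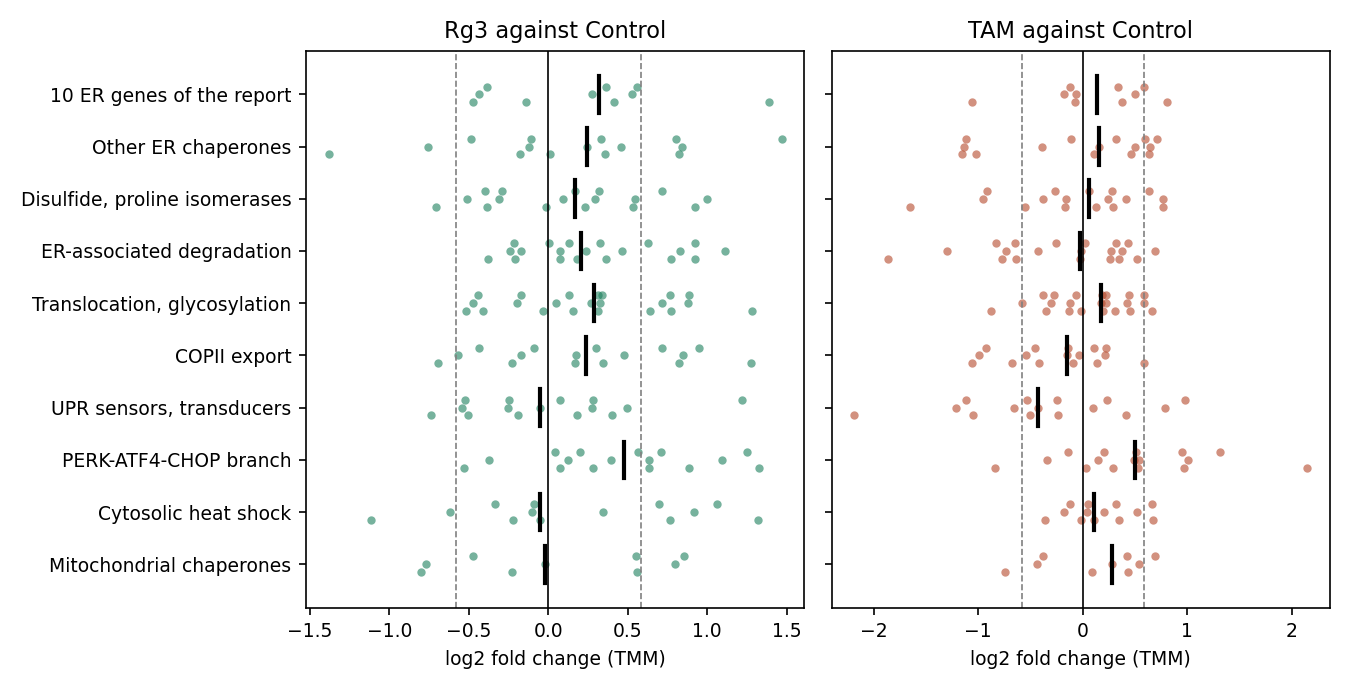
Log2 fold changes (TMM scaling) of the 10 genes and of the 9 other lists, for Rg3 and TAM against Control. Each point is a gene, each bar the median of a list, and dashed lines mark the fold limits. The PERK-ATF4-CHOP list had medians of 0.48 with Rg3 and 0.50 with TAM, and the 10 genes 0.32 and 0.13.

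Sensors and transducers differed among themselves. Of 15 compared, 1 was higher and 1 lower with Rg3, and 2 were higher and 5 lower with TAM. EIF2AK3, which encodes PERK, had 110 counts in Control, 321 with Rg3 and 67 with TAM, at log2 fold changes of 1.22 (0.90 to 1.54) and -0.51 (-0.97 to -0.06), and with the trend removed it stayed above the limit with Rg3 at 0.89. ERN1, which encodes IRE1, had 43, 52 and 18 counts, at -0.05 (-0.66 to 0.57) and -1.05 (-1.93 to -0.23). ATF6B, the relative of ATF6, had 1781, 1340 and 1815 counts, at -0.74 and 0.23. Without the trend ATF6B was inside the limits with Rg3 at -0.19, ERN1 stayed below the limit with TAM at -0.62, and the counts of the list were 2 and 0 for Rg3 and 0 and 3 for TAM.

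The PERK-ATF4-CHOP list holds genes placed by role under the third arm. Whether PERK or another signal acted on them was not tested. Rg3 had 7 of its 16 genes higher (43.8%, beside 25.0% of all genes) and 0 lower (beside 19.5%), and TAM had 5 higher (31.2%, beside 17.4%) and 1 lower (6.25%, beside 23.8%). Without the trend these were 9 and 0 with Rg3 (56.2% higher, beside 10.4%) and 5 and 1 with TAM (31.2% and 6.25%, beside 12.9% and 15.7%). With 1 library a condition, these shares describe the libraries only. DDIT3, which encodes CHOP, had 228, 680 and 382 counts, at log2 fold changes of 1.25 (1.03 to 1.47) and 0.95 (0.71 to 1.19), while ATF4 itself, with 4200, 5755 and 5299 counts, was inside the limits at 0.13 and 0.54. CHAC1, a glutathione-degrading ATF4 target, had 118, 242 and 453 counts, at 0.71 and 2.15. ASNS, with the largest rise of the list with Rg3, had 607, 1906 and 749 counts, at 1.32 and 0.51, and at 1.18 and 0.49 without the trend. PPP1R15B, the gene lower with TAM, had 397, 772 and 192 counts, at 0.63 and -0.84, and at 0.23 and -0.32 without the trend. DDIT3 (1.29 and 0.73) and CHAC1 (1.41 and 1.67) stayed above the limit in both comparisons after the trend was removed. ATF4 then passed the limit with Rg3 at 0.62, and was at 0.15 with TAM.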

How the data were processed

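PANC-1 cells were profiled by RNA-seq in 3 libraries, 1 per condition. The authors checked reads with FAST-QC, aligned them with TopHat and assembled them with MAQ, and deposited raw counts per gene symbol. The submitters' processing notes name GRCh38, and the annotation, the counting tool and the use of strand are not given in the sources used here. The table held 51136 genes, 25082 of them without reads. Groups came from the sample labels, and the 10 genes, the lists and the tests were chosen with earlier results of these data known.

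Counts were scaled by TMM (edgeR 4.0.16, R 4.3.3), with factors of 1.02 for Control, 1.12 for Rg3 and 0.879 for TAM. Counts under 3 were raised to 3, a gene needed 10 counts in the richer library of a pair, and the fold limits were 1.5 and 0.67. The 95% intervals were Clopper-Pearson for folds and Poisson for levels (scipy 1.17.1, Python 3.11.15), and they cover counting error only. The limma test of the methods and edgeR's quasi-likelihood test need replicates and could not be fitted. Other genes named were up to 3 called genes with the largest rise and up to 3 with the largest fall of each list in each comparison with Control, with at least 100 counts, and 13 named always (ERN1, EIF2AK3, ATF6B, ATF4, DDIT3, DNAJC3, P4HB, PDIA6, EDEM1, SEL1L, CANX, CRELD2, MANF). This gave 68 genes, of which 40 were kept (those 13 and the single largest rise and fall of each list), and values are printed for most of these. The genes overlapping HSP90B1 and DNAJB9 and the pseudogene were named for their position.

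GC content and length came from the longest protein-coding GENCODE 29 transcript of a symbol, found for 89.9% of genes compared for Rg3, 90.5% for TAM and 89.8% between drugs. The loess trend (span 0.3) was fitted on genes with at least 50 counts. Shared stretches were of 50 bases. Alternatives were library totals, DESeq2 1.42.0 size factors, filters of 1 and 50 counts, a binomial test with an adjusted p, a fold limit of 2, edgeR's exact test with an assumed variation of 0.2, and the trend removed. The steps were tested on simulated counts with Poisson noise and known changes, and the trend step with an added slope on GC content alone. The simulated counts held no variation between cultures, so they do not check the calls against it.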

Additional observations from a re-analysis of the deposited data

How the results depend on the processing

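With 1 library per condition, no value has a replicate check, and depth limits DNAJB9 and ERN1 most. No paired analysis was possible because a condition held a single library, and no library could be left out. A filter of at least 1 count and the binomial test with an adjusted p under 0.05 (on the reads of 2 libraries) changed none of the 30 outcomes of the 10 genes in the 3 comparisons, and at least 50 counts dropped DNAJB9 with TAM. HSP90B1 with TAM and DNAJB9 with Rg3 passed the limit under every scaling, the fold limit of 2 and the trend removed, but not with an assumed variation of 0.2.

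With library totals, 3 of the 10 genes were higher with Rg3 and 0 were higher in TAM against Rg3. The medians were then 0.46 with Rg3, -0.0761 with TAM and -0.22 between drugs. Of the other lists, 6 genes were then higher with TAM and 17 in TAM against Rg3. With DESeq2 size factors 2 of the 10 were higher with TAM, and with at least 50 counts their median with TAM was -0.0670. With a fold limit of 2, 0 of the 10 were higher with TAM or in TAM against Rg3, and the other lists had 11 higher and 2 lower for Rg3, 3 and 12 for TAM, and 13 higher between drugs. With an assumed variation of 0.2, 0 of the 10 were higher with Rg3, 0 higher and 0 lower with TAM, and 0 higher and 1 lower (HSP90B1) between drugs, and the other lists had 0 and 0, 1 and 1, and 13 and 36. With the trend removed, 3 of the 10 were higher with TAM and 0 between drugs. Their medians were 0.0490 with Rg3 and -0.0502 between drugs. The other lists then had 16 higher and 3 lower for Rg3, 9 lower for TAM, and 13 higher and 30 lower between drugs. Removal also turned SDF2L1 to -0.59 and ATF6 to 0.56 in TAM against Rg3, ATF6 to 0.64 and SAR1B to 0.64 with TAM, and SEL1L to -0.0211 with Rg3. For these changes the cause was not tested beyond the setting itself.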

Other observations

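Chaperones outside the ER were read from the same libraries, in which 25.0% of all genes compared were higher and 19.5% lower for Rg3, and 17.4% and 23.8% for TAM. Of 13 heat shock genes of the cytosol, Rg3 had 5 higher and 2 lower, and with TAM 2 were higher and 0 lower, counts that became 1 and 0 for Rg3 and 2 and 1 for TAM without the trend on GC content and length. HSP90AA1, the inducible cytosolic relative of HSP90B1, had 4363 counts in Control, 13669 with Rg3 and 3347 with TAM, at log2 fold changes of 1.32 (1.27 to 1.37) and -0.18 (-0.24 to -0.11), so that the lower level of HSP90B1 with TAM was not matched in size by it. With the trend removed HSP90AA1 stayed above the limit with Rg3, at 1.04. HSPA8, the constitutive cytosolic relative of HSPA5, had 20774, 33106 and 28722 counts, at 0.35 and 0.67. HSPB1, a small heat shock protein, had 4128, 2387 and 3287 counts and fell by 1.12 with Rg3 on the log2 scale, and with the trend removed it was inside the limits at -0.44. With TAM HSPB1 was at -0.12, and with the trend removed it was below the limit at -0.65.

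Of 9 mitochondrial chaperones and proteases, 2 were higher and 2 lower with Rg3, and 1 was higher and 1 lower with TAM. Without the trend these counts became 1 and 0 for Rg3 and 0 and 0 for TAM. HSPE1, the co-chaperonin of the matrix, had 1115, 2531 and 1029 counts, at log2 fold changes of 0.86 with Rg3 and 0.09 with TAM. TRAP1, the HSP90 of mitochondria, had 5385, 3878 and 6314 counts, at -0.80 and 0.44, and with the trend removed it was at -0.34 and 0.10. HSPE1 stayed above the limit with Rg3 at 0.93 with the trend removed.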
